A study of Arabidopsis thaliana with 2 samples.

Results

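HCT, BGLU46, BGLU47, PRX72 and PRXR1 are 5 Arabidopsis thaliana genes of lignin building blocks, their glucosides and the peroxidase family that can join them into polymer. They were chosen by name, as the probe sets annotated to a single gene with one of these symbols, and each gene had 1 such probe set. The choice was made with earlier results of these data known. They are 5 of 13286 genes with such a probe set, and the arrays hold 22746 probe sets for plant transcripts. Total RNA from 2 hypocotyl samples, called sample 2 and sample 1 here, was labelled and hybridised on 2 Affymetrix ATH1 arrays. Both samples came from Col plants at growth stage 6.0, grown on compost and vermiculite at 22 °C in days of 8 h light and 16 h dark, with Intercept, an insecticide, in the first watering. Both therefore belong to 1 group with no treated, mutant or control arm, and no label states that they are separate plants, so what differs between them may be technical. The series was made to look for genes of secondary wall development in the hypocotyl, the stem below the seed leaves.

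Lignin is the phenolic polymer that stiffens and waterproofs the walls of xylem vessels and fibres. Its building blocks, the monolignols, are made from phenylalanine in the cytosol. HCT, hydroxycinnamoyl-CoA shikimate/quinate hydroxycinnamoyl transferase, makes the shikimate esters on which the next ring hydroxylation of the pathway takes place. Glucosyltransferases of the UGT72E group attach glucose to monolignols and their aldehydes, and beta-glucosidases such as BGLU45 and BGLU46 can take it off again. In the wall, laccases and class III peroxidases oxidise monolignols to radicals, which couple into the polymer. A hypocotyl of a plant kept in short days thickens by secondary growth and comes to hold much xylem. In RNA from a whole organ, fewer cells of a type and less RNA per cell cannot be told apart.

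Values are linear probe set signals without a unit, scaled by the authors until the mean of each array, without its lowest and highest 2%, was 100. The arrays are compared by a log2 ratio, with sample 2 on top. With 2 samples of 1 group no test was possible, and the number of arrays limits the precision. Probe sets report the same amount of RNA with different brightness, so a rank gives a probe set's place on the array and not a gene's abundance relative to another gene. A probe set was called detected when it exceeded, on both arrays, the brightest of 27 control probe sets for Bacillus transcripts, which plants do not make. That limit was 12.6 in sample 2 and 13.1 in sample 1. Among all plant probe sets, 15919 (70.0%) passed it.

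The arrays matched closely over these 15919 probe sets, with a Pearson's r of 0.987 between log2 signals across probe sets, which are not independent replicates. The 18 hybridisation controls, transcripts of bacterial and phage genes, were all lower in sample 2, with a median log2 ratio of -0.78, and their part in the results below was not tested. The labels give mean scanner backgrounds of 95.57 for sample 2 and 79.94 for sample 1. Of 7 genes listed for xylem and secondary wall, the 4 measured were GUT2, GUT1, IRX15 and IRX15-L. All 4 were detected, with summed signals of 657 in sample 2 and 605 in sample 1. AT5G44030, AT4G18780 and AT5G17420, also listed, had no named probe set here, so this check of xylem is partial. The 3 measured of 4 genes listed under cambium, CLE41, CLE44 and MOL1, were detected too (1029 and 1103 in sum). CLE41 gave most of that sum, with 699 in sample 2 and 757 in sample 1. In which cells these genes were expressed was not measured, so their sum is no measure of cambium cells. Both measured markers of green tissue of 4 listed were also detected (946 and 896). The 2 measured root hair markers of 3 listed were detected but close to the limit, at 28.6 and 30.1 in sum. Neither of the 2 measured pollen and anther markers of 3 listed was detected on both arrays, with sums of 13.8 and 9.5. No marker listed for root endodermis had a named probe set here.

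Of the 5 genes, 4 were detected on both arrays, 80.0% against the 70.0% of all plant probe sets. HCT, BGLU46, BGLU47 and PRXR1 passed, and PRX72 was below the limit on both. None of the 4 detected genes differed by 2-fold between the arrays, where 0.320% of detected plant probe sets were higher and 0.144% lower in sample 2 by that much. None differed by 1.5-fold either, where 2.23% were higher and 1.60% lower. The median log2 ratio was 0.10 over the 4 detected genes, and 0.34 with PRX72 included, against 0.00073 over all detected plant probe sets.

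**Figure D1:**
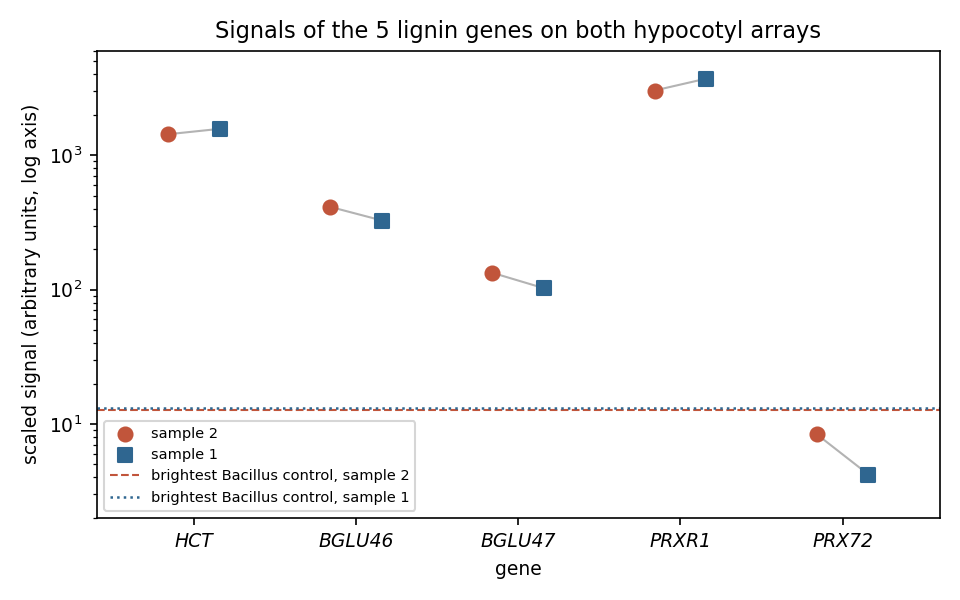
Scaled signal (log axis, arbitrary units) of each gene in sample 2 (circles) and sample 1 (squares), with the brightest Bacillus control of each array as a dashed and a dotted line. HCT, BGLU46, BGLU47 and PRXR1 lie at 102.2 or more on both arrays, and PRX72, at 8.4 and 4.2, lies under both lines.

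HCT, the acyltransferase at the entry to the main monolignol branch, read 1435 in sample 2 and 1575 in sample 1, a mean of 1505 ± 99.0 (SD, n = 2). Its probe set ranked 170 in sample 2 and 167 in sample 1 among the 22746 plant probe sets, so its place on the array was nearly the same in both. The log2 ratio was -0.13, and the 200 detected probe sets nearest in mean signal had the same median of -0.13 with an SD of 0.11. Bright probe sets as a whole were thus somewhat lower in sample 2, and HCT sat in the middle of them. After loess normalization, which removes that trend with signal, the log2 ratio of HCT was -0.0014, and after quantile normalization it was -0.020. The size of the difference thus depended on the scaling, and it was nearly gone after these 2 normalizations. Its sign was the same under each of the 5 other scalings and offsets, but no direction is read from a difference this small.

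BGLU46, a beta-glucosidase that can hydrolyse monolignol glucosides such as coniferin, read 413 in sample 2 and 327 in sample 1, a mean of 370 ± 60.8 (SD, n = 2). It ranked 1535 in sample 2 and 2112 in sample 1, at the 93.3 and 90.7 percentiles of plant probe sets. The fold of 1.26 toward sample 2 is a log2 ratio of 0.34. Of the 200 detected probe sets nearest in mean signal, with means between 352 and 384, 0.50% had a log2 ratio as high and 2.5% differed by as much in either direction, and their SD was 0.15. The difference was thus large for a probe set of this brightness and short of 1.5-fold.

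BGLU47, a relative placed in the same branch of the beta-glucosidase family, read 133 in sample 2 and 102.2 in sample 1, a mean of 118 ± 22.0 (SD, n = 2). Its percentile was 76.0 in sample 2 and 70.3 in sample 1. The log2 ratio of 0.38 was reached or passed by 3.0% of the 200 nearest probe sets, and 4.5% differed by as much in either direction, with an SD of 0.18. Both glucosidases read higher in sample 2 under all 5 other scalings and offsets tried, with log2 ratios from 0.31 to 0.35 for BGLU46 and from 0.34 to 0.38 for BGLU47. Not all of the 5 could have changed the direction. Leaving out the rescaling changed almost nothing, and adding 16 before log2 cannot change a sign. After loess normalization the log2 ratios were 0.35 for BGLU46 and 0.37 for BGLU47.

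PRXR1, a class III peroxidase, read 3034 in sample 2 and 3722 in sample 1, a mean of 3378 ± 486 (SD, n = 2). Its probe set was the second brightest of all 22746 plant probe sets on both arrays. The single brighter probe set had no gene named here and read 3196 in sample 2 and 3869 in sample 1. The log2 ratio of PRXR1 was -0.29. The 200 nearest detected probe sets, which at this end of the scale reach down to a mean of 1404, had a median of -0.19 and an SD of 0.11, and 13.0% of them were at least as low. After loess normalization the log2 ratio was -0.079. After quantile normalization it was 0, because a probe set with the same rank on both arrays then gets the same value.

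PRX72, a peroxidase whose loss lowers lignin in Arabidopsis stems, read 8.4 in sample 2 and 4.2 in sample 1. Both were under the brightest Bacillus controls, 12.6 and 13.1, and 2 of the 27 controls in sample 2 and 5 in sample 1 were at least as bright as PRX72. The median control read 2.1 in sample 2 and 1.2 in sample 1, so PRX72 was brighter than most controls but inside their range. The values have 1 decimal, and rounding alone lets their ratio lie anywhere from 1.96 to 2.04. Among the 200 plant probe sets nearest in signal, 37.0% differed between the arrays by as much or more, with an SD of 1.11 on the log2 scale. No direction is read from it. PRX72 transcript was thus not detectable by this limit, which does not show that it was absent.

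**Figure D2:**
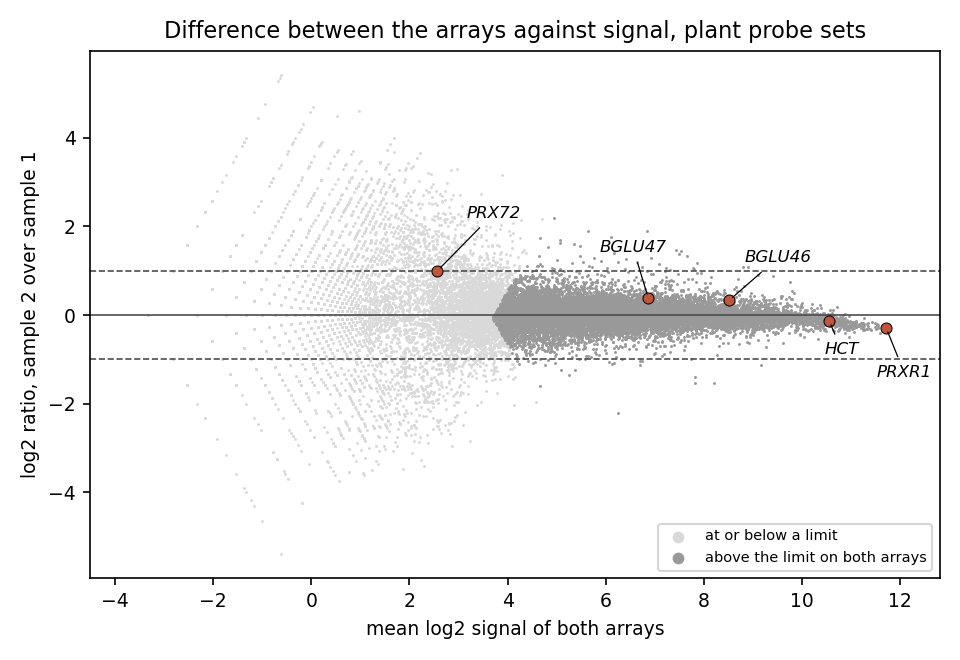
Log2 of the ratio, sample 2 over 1 (vertical) against the mean log2 signal of both arrays (horizontal) for plant probe sets with signals above 0, dark where above the limit on both arrays. Dashed lines mark 2-fold. BGLU46 (0.34) and BGLU47 (0.38) lie in the upper part of the dark cloud, which extends above them, HCT (-0.13) and PRXR1 (-0.29) lie in its downward-bending bright end, and PRX72 lies in the wide pale fan of dim probe sets.

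The rest of the monolignol pathway was thinly covered. Of 19 listed genes from phenylalanine ammonia-lyase to cinnamyl alcohol dehydrogenase, 2 had a named single-gene probe set, HCT and CCR2. CCR2, a cinnamoyl-CoA reductase of the kind that commits the CoA esters to monolignols, read 48.9 in sample 2 and 70.7 in sample 1, and its log2 ratio was -0.53. Both were detected, where 70.0% of all plant probe sets were, and neither reached 1.5-fold. Both were lower in sample 2, where 50.1% of detected plant probe sets were higher. Of the 200 detected probe sets nearest to CCR2 in mean signal, 0.5% were as low and 1.5% differed by as much in either direction. After loess normalization the log2 ratio was -0.54 for CCR2 and -0.0014 for HCT. The other 17 genes of the pathway, and all 17 listed transcription factors, Mediator subunits and F-box proteins that regulate it, were not analysed here.

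For the step that adds and removes glucose, 7 of 7 listed genes were measured, though the list may not hold every gene of that step. On both arrays 5 (71.4%) were detected, close to the 70.0% of all plant probe sets. The glucosyltransferase gene UGT72E2, whose product acts on coniferyl and sinapyl alcohol, had 55.8 in sample 2 and 59.0 in sample 1. UGT72E3, its close relative, had 16.0 in sample 2 and 17.4 in sample 1, little above the limit. UGT72B1, which encodes a glucosyltransferase of the same family, had 646 in sample 2 and 664 in sample 1. These 3 glucosyltransferases had log2 ratios of -0.08, -0.12 and -0.04, while the detected glucosidases BGLU46 and BGLU47 were at 0.34 and 0.38. UGT72E1, which acts on the aldehydes, was not detected, at 3.0 in sample 2 and 1.6 in sample 1. The median log2 ratio of the 5 detected genes was -0.04, against 0.00073 over all detected plant probe sets. That list median was 0.0030 after quantile and 0.013 after loess normalization, so it has no settled direction.

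BGLU45, the other glucosidase known to act on monolignol glucosides, passed the limit on a single array. It had 12.5 in sample 2, just under the limit of 12.6, and 14.0 in sample 1, just over the limit of 13.1. In the RefSeq annotation of TAIR10.1, BGLU45 and BGLU46 are direct neighbours on chromosome 1, with 0 protein-coding genes between them. BGLU46 was detected on both arrays and BGLU45 on that of sample 1 alone.

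**Figure D3:**
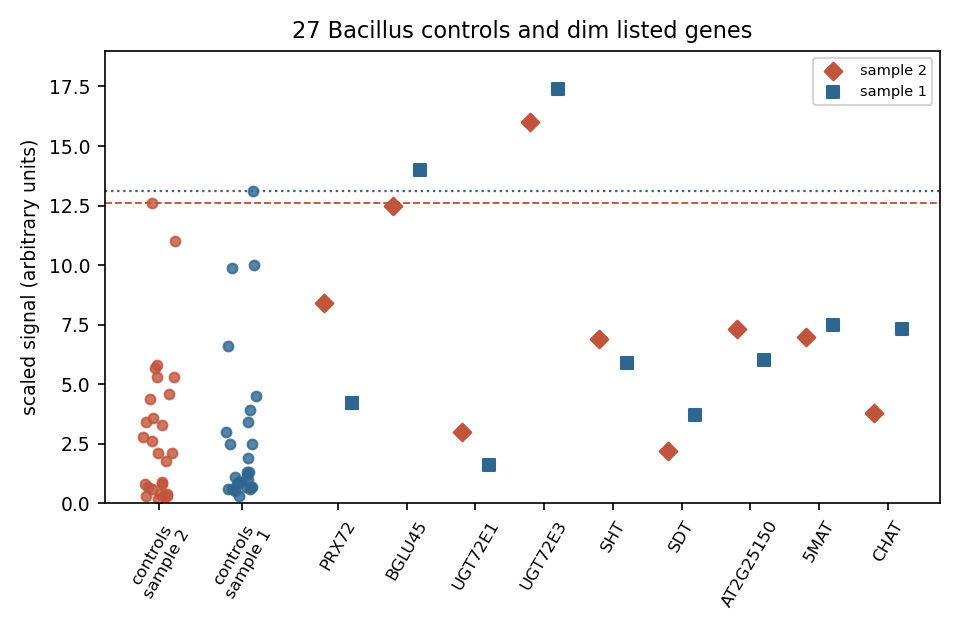
Scaled signals (linear axis, arbitrary units) of the 27 Bacillus control probe sets (left, circles, sample 2 then sample 1) and of dim listed genes in sample 2 (diamonds) and sample 1 (squares), with the brightest control of each array as a dashed (sample 2) and a dotted (sample 1) line. PRX72 and 6 other genes lie under both lines, BGLU45 lies at the lines with 12.5 and 14.0, and UGT72E3 lies above them with 16.0 and 17.4.

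Among the listed laccases and peroxidases with a link to lignin, 8 of 18 had a named probe set, all of them peroxidases. Of the 8, 7 (87.5%) were detected, against 70.0% of all plant probe sets. PRX52, a peroxidase needed for normal lignin in stem fibres, had 14.9 in sample 2 and 17.2 in sample 1. PRX25 had 20.0 in sample 2 and 23.5 in sample 1, and PRX71, which is linked to wall stiffening, had 46.0 in sample 2 and 39.2 in sample 1. AT2G22420, AT4G33420 and AT5G51890, listed by locus, had means of 50.2 ± 4.38, 39.0 ± 2.33 and 22.0 ± 3.32 (SD, n = 2). The probe sets of these 6 read between 14.9 and 53.3, above the limit on both arrays. Of the 7 detected genes, 2 were higher and 5 lower in sample 2, with log2 ratios from -0.29 to 0.31 and a median of -0.18, against 50.1% of detected plant probe sets higher in sample 2. None of the 7 differed by 2-fold.

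**Figure D4:**
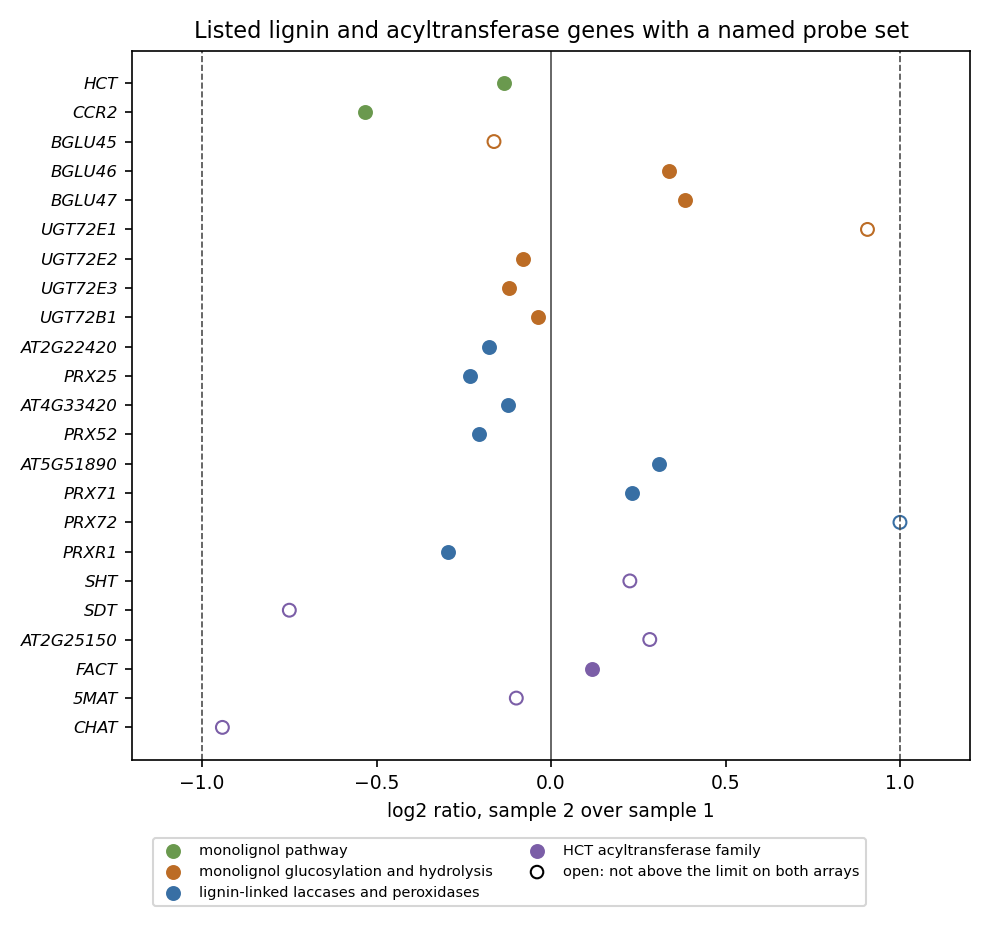
Log2 ratio of sample 2 over sample 1 for each listed lignin or acyltransferase gene with a named probe set, coloured by list, with filled circles for genes above the limit on both arrays, open circles for the others and dashed lines at 2-fold. The filled circles run from -0.53 (CCR2) to 0.38 (BGLU47).

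HCT belongs to a family of plant acyltransferases that use CoA esters as donors, and 7 of the 14 listed members were measured. HCT and FACT passed the limit, 28.6% of those measured, against 70.0% of plant probe sets. FACT, which encodes a fatty alcohol caffeoyl transferase, had 131 in sample 2 and 121 in sample 1, and its log2 ratio was 0.12. The other 5 were below the limit on both arrays. SHT, a spermidine hydroxycinnamoyl transferase gene, had 6.9 in sample 2 and 5.9 in sample 1. SDT, for spermidine disinapoyl acyltransferase, had 2.2 in sample 2 and 3.7 in sample 1. CHAT, which makes the leaf volatile hexenyl acetate, had 3.8 in sample 2 and 7.3 in sample 1, and 5MAT and AT2G25150 read between 6.0 and 7.5. No difference is read from these 5.

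The beta-glucosidase family in the gene table has 47 members, of which 22 had a named probe set and 11 (50.0%) were detected on both arrays, against 70.0% of all plant probe sets. The 6 with the highest mean signals were PYK10, BGLU33, BGLU44, BGLU46, BGLU15 and BGLU40, and BGLU47 came next. PYK10, the main glucosidase of ER bodies, had 984 in sample 2 and 769.7 in sample 1. BGLU33 had 459 in sample 2 and 454 in sample 1, and BGLU44 had 429 in sample 2 and 409.9 in sample 1. BGLU15 had 209 in sample 2 and 166 in sample 1, and BGLU40 had 107 in sample 2 and 139.8 in sample 1. Of the 11 detected, 8 (72.7%) were higher and 3 lower in sample 2, against 50.1% higher among all detected plant probe sets, and the median log2 ratio was 0.08. BGLU46 (0.34), BGLU47 (0.38), PYK10 (0.35) and BGLU15 (0.34) had the 4 highest log2 ratios of the 11, and BGLU40 (-0.39) the lowest. None of the 11 differed by 2-fold.

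The class III peroxidases, which have 73 loci in the list used, were measured at 55, and 30 (54.5%) were detected on both arrays, against 70.0% of all plant probe sets. A signal of 100 or more on both arrays was reached by 6 (10.9%), where 29.0% of all plant probe sets reached it. These 6 were PRXR1, AT3G21770, AT2G37130, AT4G36430, AT3G28200 and AT5G58390. AT3G21770 had 808 in sample 2 and 876 in sample 1. AT2G37130 had 669.6 in sample 2 and 534 in sample 1, and AT4G36430 had 664 in sample 2 and 520.5 in sample 1. AT3G28200 had 290.4 in sample 2 and 224 in sample 1, and AT5G58390 had 199 in sample 2 and 196 in sample 1. Of the 30 detected peroxidases, 13 (43.3%) were higher and 17 lower in sample 2, against 50.1% higher among all detected plant probe sets, with log2 ratios from -0.49 to 0.46 and a median of -0.09. PRXR1 and AT3G21770 were the lower ones among the 6, at -0.29 and -0.12. PRX72 was 1 of 22 family members below the limit on both arrays, and 3 more were below it on a single array.

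**Figure D5:**
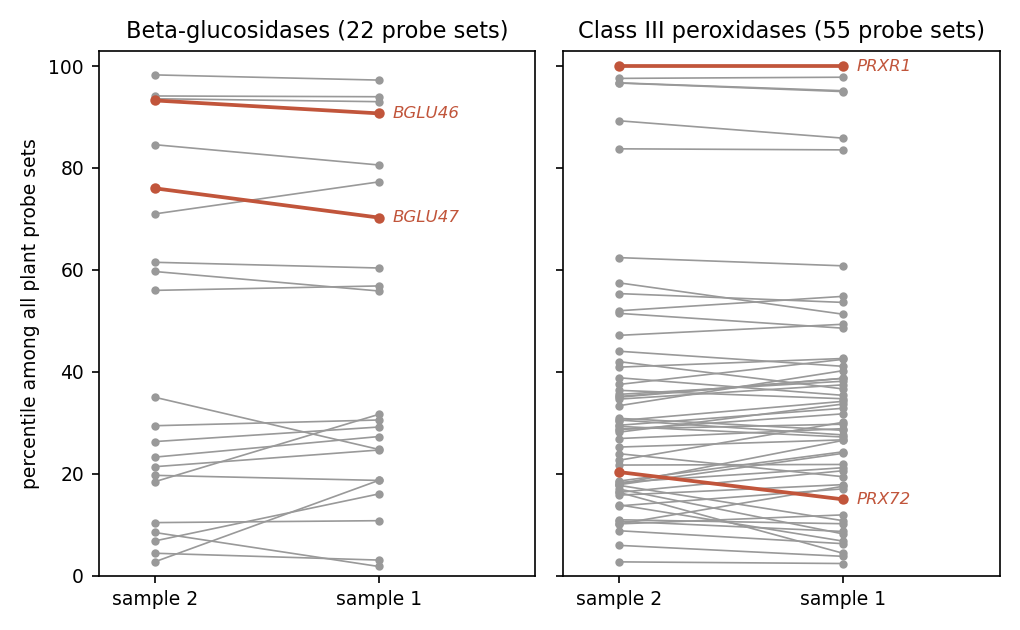
Percentile among all 22746 plant probe sets in sample 2 (left) and sample 1 (right) for the 22 beta-glucosidase (left panel) and 55 class III peroxidase probe sets (right panel), a line for each, with the named genes in red. PRXR1 stays at the top on both arrays, BGLU46 is at 93.3 and 90.7, BGLU47 at 76.0 and 70.3, and PRX72 at 20.3 and 15.0.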

How the data were processed

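Biotin-labelled cRNA from 2 hypocotyl samples was hybridised to 1-colour ATH1 arrays, per the labels. The authors deposited 1 linear intensity, to 1 decimal, for each of 22810 probe sets on an array; the software and any background correction are not given in the sources used here. The arrays' trimmed means, already nearly equal, were set equal, and counts leave out 64 control probe sets. Gene names come from the platform annotation (14016 probe sets, 13513 with 1 gene and 503 with several) and the RefSeq gene table of TAIR10.1, which matched 13436; 8730 plant probe sets were unnamed here. The values name no genome build, so positions are not printed.

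The members and lists were chosen with earlier results of these data known, and the list of 73 peroxidase loci was added after the values were seen. All listed genes with a named probe set are reported. In the 2 families these are the 6 with the highest mean signals plus any 2-fold difference above the limit on both arrays. Differences of 2-fold among family members below the limit are not named. A ratio within 1e-04 of the threshold on the log2 scale counted as 2-fold. Each member, and CCR2, was set beside the 200 probe sets nearest in mean log2 signal, as a description. Python 3.11.15 was used (pandas 2.3.3, statsmodels 0.14.6 for loess, numpy 2.4.6, matplotlib 3.10.9), and the steps were tested on simulated arrays. Alternatives were other scalings (none, median, quantile, loess with a span of 0.3), 16 added before log2, other limits, a 1.5-fold threshold and leaving out each sample.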

Additional observations from a re-analysis of the deposited data

How the results depend on the processing

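The count of 4 detected genes was 5 with the brightest TrpnX controls as the limit, which 85.2% of plant probe sets passed. With no limit it was 5 by definition, since 100.0% then pass. At a signal of 50, passed by 45.1% of plant probe sets, it was 4, and from either sample alone it was 4. The count of 0 genes with a 2-fold difference became 1 with the TrpnX limit and 1 with no limit, through PRX72, where 3.31% and 9.56% of plant probe sets differed by as much. It stayed 0 at a signal of 50, at 1.5-fold and under every scaling tried. The median log2 ratio of the 5 genes was 0.34, between 0.27 and 0.35 under other scalings and offsets, and 0.10 over the 4 detected genes. It includes PRX72, which has no readable direction. Of the 50 other recomputed values of single genes, 46 moved by no more than the spread; the 4 that moved more were the log2 ratios of HCT and PRXR1 under quantile and loess normalization. List medians moved by less than the spread of all detected probe sets, an SD of 0.26. No paired analysis was possible because both samples form 1 group. The signal over background limits what can be read of PRX72 and BGLU45.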
